A study of Mus musculus with 24 samples.

Results

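Engulfment signalling connects the receptors that recognise a shed photoreceptor outer segment to the actin machinery that draws it into the cell. Transcripts of 10 of its genes were measured in the retinal pigment epithelium (RPE) of mice: the kinases Ptk2 and Src, the adaptors Bcar1 and Crk, the exchange factor pair Dock1 and Elmo1, the GTPases Rac1 and Cdc42, the motor Myo7a and the membrane-binding protein Anxa2. The genes were chosen by name for their place in the pathway and not by a measured value, although earlier results of these data were known. All 10 were found among the 54232 gene identifiers of the count table, and all 10 were among the 20275 genes that passed the filter on low counts.

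The RPE was laser-captured from snap-frozen eyes of male mice 6 weeks old, strain C57BL/6/J x 129 SvEvBrd. The mice were either wild type or Per1-/-Per2Brdm1, a genotype affecting the clock repressor genes Per1 and Per2, and "knockout" is used here as the name of the libraries with that label. Both genotypes were sampled at circadian times CT19, CT22, CT1 and CT10, chosen around the daily peak of outer segment uptake, which gave 8 groups of 3 libraries. The study's title asks whether Per1 and Per2 govern the rhythm of that uptake. Of the 24 libraries, 5 were pooled from 2 eyes: wild-type 3and6 at CT1 and knockout 3and5 at CT19, 1and4 at CT22, 4and6 at CT1 and 3and5 at CT10. The labels do not say that each library came from a separate animal, and p-values therefore describe only how far libraries differ from each other.

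Libraries held 16245067 to 32066263 counts, and a member had between 105 and 14707 counts in any library. The 14 RPE markers, among them Rpe65, Rlbp1 and Best1, summed to between 27330 and 54440 CPM, and no library had more than 1 of them at 0. CPM stands for counts-per-million units after scaling between libraries. The 13 rod photoreceptor markers, none of them at 0 in any library, summed to between 15760 and 90210 CPM. RNA of both cell types was present in every library, and fewer cells of a type cannot be told apart from less RNA per cell. Endothelium, fibroblast and mural markers, together called choroid markers, were also detected in every library, with an endothelial sum of 410 to 1154 CPM. Melanocyte, immune and blood markers were detected in every library too. So were inner retina markers, with a sum of 342.4 to 1173 CPM, and cone markers, with a sum of 88.16 to 427.9 CPM. Per1 ranged from 24.4 to 186 CPM over wild-type libraries and from 76.9 to 252 CPM over knockout ones, and Per2 from 10.2 to 160 and from 75.4 to 153 CPM, so neither targeted transcript was lost from the libraries labelled knockout.

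In the RPE, the integrin alpha-v beta-5 tethers outer segments and signals through focal adhesion kinase (the product of Ptk2) and Src to the receptor MerTK. In the conserved engulfment route, the docking protein p130Cas (Bcar1) and the adaptor Crk bring the Dock1 and Elmo1 complex to the membrane, where it loads Rac1 with GTP and drives actin remodelling. Myosin VIIa (Myo7a) moves ingested phagosomes and melanosomes through the RPE cell, and annexin A2 (Anxa2) binds membrane and actin at the forming phagosome.

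The members spanned a wide range of levels, and the GTPases headed the order. Levels between genes are compared as CPM per kilobase of annotated exon, as the mean over 24 libraries. Cdc42 stood at 67.5 ± 12.8 (SD) CPM per kb, Rac1 at 51.8 ± 10.7, Bcar1 at 42.1 ± 6.49, Myo7a at 33.2 ± 9.21 and Src at 32.2 ± 6.15. Crk followed at 22.7 ± 3.45, Anxa2 at 13.7 ± 3.14, Ptk2 at 6.63 ± 0.825, Dock1 at 4.40 ± 1.36 and Elmo1 at 0.777 ± 0.214. Among all tested genes Cdc42 lay at percentile 97.5 of this level and Elmo1 at percentile 30.6. Every pair of neighbours in the order overlapped in range except Dock1 and Elmo1, and Myo7a was above Src in 11 of 24 libraries, so those 2 genes had no order. Crk was above Anxa2 and Anxa2 above Ptk2 in 24 of 24 libraries. Exon lengths matter for this order: with the longest transcript in place of all exons, Bcar1 (60.9 CPM per kb) passed Rac1 (56.0), and Ptk2 was at 16.7 and Elmo1 at 1.79 CPM per kb.

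**Figure D1:**
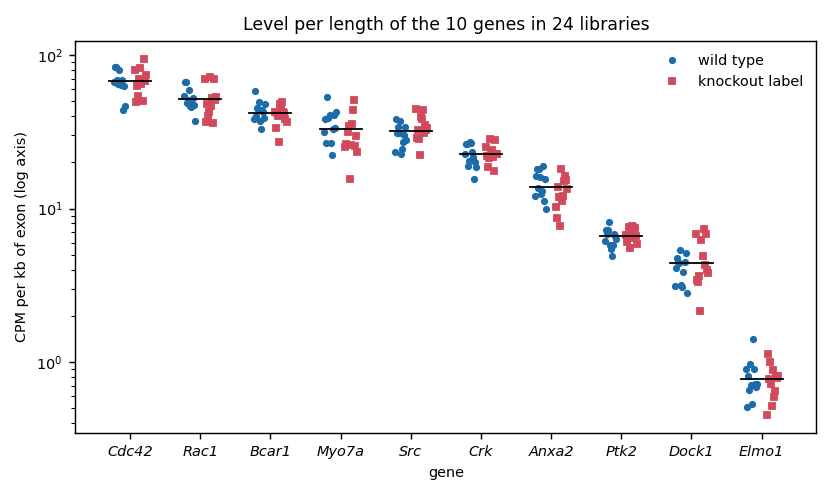
Level of each member as CPM per kilobase of exon (log axis) in every library, wild type as circles and knockout as squares, with the mean over 24 libraries as a line. Cdc42 and Rac1 are at the top and Elmo1, at 0.777 CPM per kb, is at the bottom with no overlap with Dock1.

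Genotypes had opposite extremes of group means at CT1 in 5 members and at CT10 in 5. No member passed edgeR's test of time within a genotype, described below. In wild type, Ptk2, Src, Bcar1, Dock1 and Myo7a had their lowest group mean at CT1, and in knockout these 5 genes had their highest group mean at CT1. The other 5, Crk, Elmo1, Rac1, Cdc42 and Anxa2, had their lowest wild-type mean and their highest knockout mean at CT10. All 10 members therefore had the wild-type low and the knockout high at the same time, against 32.9% of all tested genes (12.7% at CT1 and 10.1% at CT10). This description was chosen after the values were seen and has no test. Members also varied together (Pearson r = 0.86 for Src and Dock1), so they are not 10 separate cases. Some extremes were slight, such as Elmo1 in knockout at 10.07 CPM at CT10 and 9.91 ± 4.28 (SD) at CT19. With libraries scaled by relative log expression (RLE), 8 of 10 members had the wild-type low and the knockout high at the same time. Of these 5 were at CT1, 2 (Cdc42 and Anxa2) at CT10 and the remaining member at neither, so Crk, Elmo1 and Rac1 left the CT10 pattern. Without the 5 pooled libraries 7 of 10 members had both at the same time, 3 of them at CT1 and 4 at CT10. The rod marker sum ran opposite to the CT1 pattern: its group median was highest in wild type at CT1 (62090 CPM) and was 26190 CPM in knockout at CT1. With the rod score, the mean log2 level of the rod markers, the 5 CT1 members had Pearson r from -0.74 (Bcar1) to -0.58 (Ptk2). The other 5 had r from -0.47 (Anxa2) to 0.3 (Elmo1). The ratio of the highest to the lowest group mean was small, from 1.22 in Bcar1 to 1.62 in Myo7a in wild type and from 1.11 in Ptk2 to 1.72 in Myo7a in knockout. The coefficient of variation over the 24 libraries ran from 12.4% in Ptk2 to 30.8% in Dock1, with a median of 19.9%, next to 21.8% for tested genes with a mean of at least 5 CPM.

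**Figure D2:**
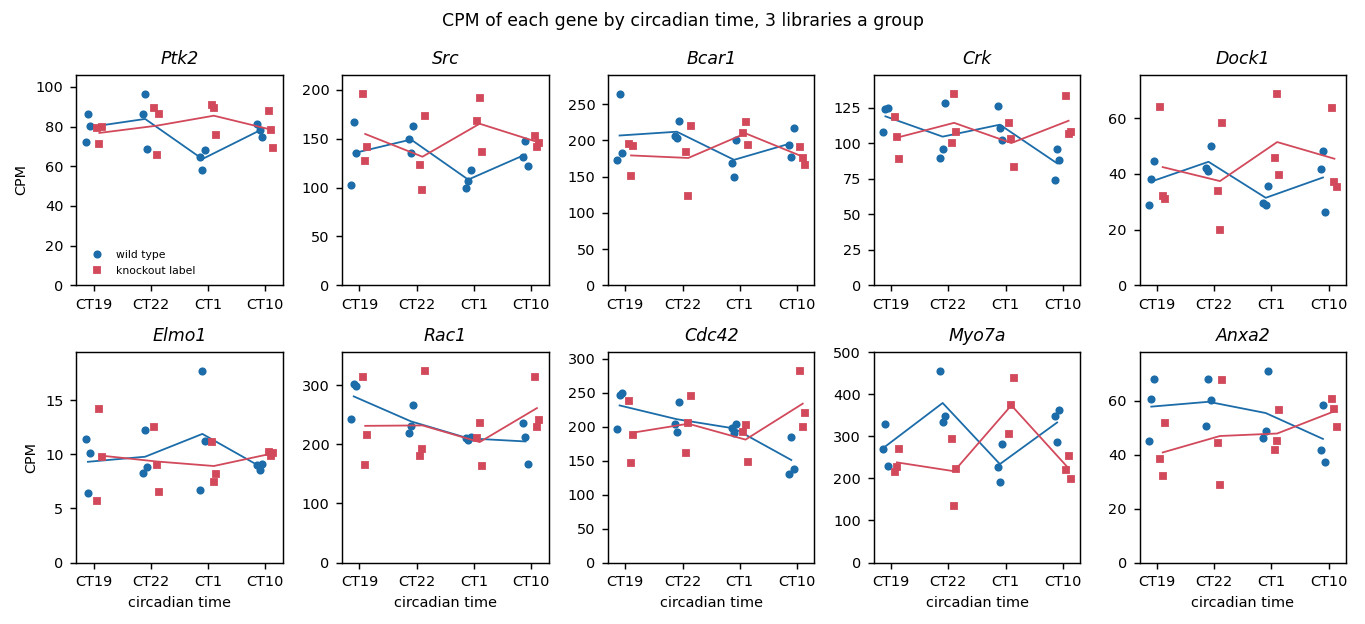
CPM of each member (vertical axis, from 0) at the 4 circadian times, with 3 libraries a group as points and group means joined by lines, wild type as circles and knockout as squares. Ptk2, Src, Bcar1, Dock1 and Myo7a are lowest at CT1 in wild type and highest at CT1 in knockout.

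Time was tested as any difference over the 4 times within a genotype, with edgeR's quasi-likelihood test and Benjamini-Hochberg adjustment over all 20275 genes, and a gene passed at an adjusted p under 0.05. In wild type 0 of 10 members passed, with 2 at an unadjusted p under 0.05 and 0 by DESeq2, a second count-based tool. Of all genes 0.947% passed, 19.3% had an unadjusted p under 0.05 and 7.46% passed by DESeq2, and the shares of all genes that follow are in this order. In knockout 0 of 10 passed, with 1 at an unadjusted p under 0.05 and 1 (Myo7a) by DESeq2, beside 0%, 11.7% and 1.87% of all genes. For CT1 against the mean of the other times, 0 of 10 members passed in wild type (3 unadjusted, 0 by DESeq2), beside 0.7%, 16% and 3.95% of all genes. In knockout 0 of 10 passed the same comparison (1 unadjusted, 1 by DESeq2), beside 0.286%, 21.9% and 9.73% of all genes.

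Between genotypes, too, no member passed at any single time or on average. For the mean difference over the 4 times, 0 of 10 members passed, 0 at an unadjusted p under 0.05 and 0 by DESeq2, beside 0.375%, 7.07% and 0.834% of all genes. The members' median log2 difference, knockout minus wild type, was 0.021, and that of all genes was 0.022. At CT19 0 of 10 passed (0 unadjusted, 0 by DESeq2), beside 0.0691%, 3.47% and 0.245% of all genes, and the members' median was -0.20 against -0.01. At CT22 0 of 10 passed (1 unadjusted, 1 by DESeq2), beside 0.227%, 12.7% and 1.44% of all genes, with a median of -0.13 against 0.03. At CT1 0 of 10 passed (4 unadjusted, 3 by DESeq2), beside 0.533%, 19.5% and 7.13% of all genes, with a median of 0.12 against -0.01. At CT10 0 of 10 passed (3 unadjusted, 0 by DESeq2), beside 0.0345%, 17.9% and 4.82% of all genes, with a median of 0.20 against 0.09. The member that DESeq2 called at CT22 was Myo7a, and the 3 at CT1 were Ptk2, Src and Myo7a.

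Counting members whose 3 wild-type and 3 knockout libraries did not overlap gave 0 of 10 at CT19 (9.27% of all genes) and 1 at CT22 (12.8%). It gave 4 at CT1 (24.7%) and 4 at CT10 (30.2%). The members without overlap were Myo7a, lower in knockout, at CT22, and Ptk2, Src, Dock1 and Myo7a, all higher in knockout, at CT1. At CT10 they were Crk, Elmo1 and Cdc42, higher in knockout, and Myo7a, lower. Between 9.27% and 30.2% of all genes did the same, so these counts do not set the members apart. With RLE scaling Bcar1 joined the members without overlap at CT1, which made 5.

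**Figure D3:**
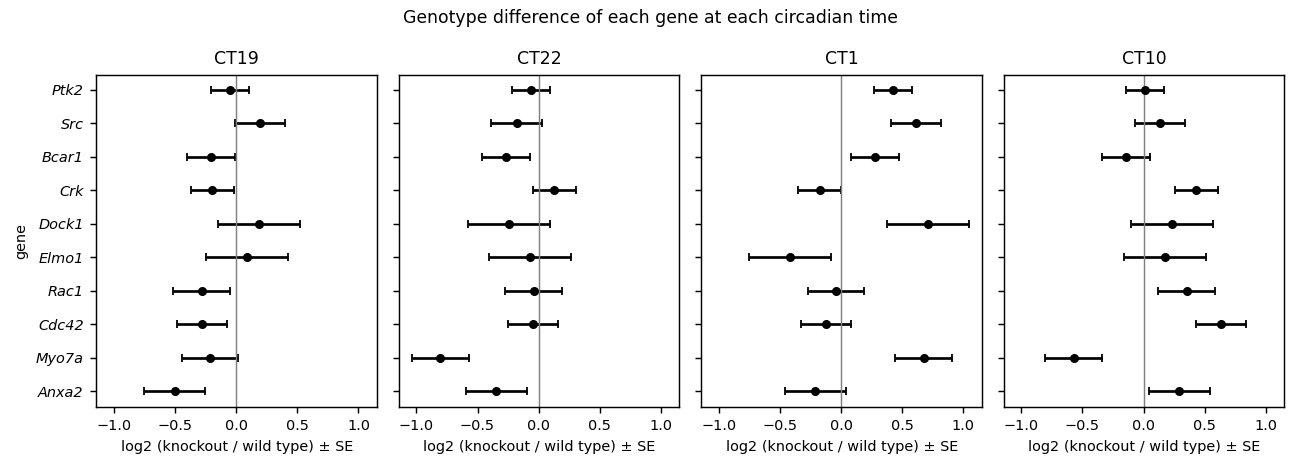
Log2 difference, knockout minus wild type, of each member at each circadian time, with bars of 1 SE from the fit. Myo7a lies at -0.81 at CT22, 0.68 at CT1 and -0.57 at CT10, and none of the points passed with edgeR at an adjusted p under 0.05.

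Ptk2 (ENSMUSG00000022607, GRCm38 chromosome 15, 73205102 to 73423280, minus strand) encodes focal adhesion kinase, which is activated at the integrin when an outer segment binds. At CT1 its wild-type libraries were at 64.7, 57.9 and 68.4 CPM and its knockout libraries at 91.1, 89.5 and 75.8 CPM. The 3 knockout libraries lay above the 3 wild-type ones, and the log2 difference was 0.43 (SE 0.155, edgeR adjusted p = 0.134). At the other times the groups overlapped, with wild-type libraries between 68.8 and 96.6 CPM and knockout libraries between 65.6 and 89.6 CPM, and log2 differences between -0.06 and 0.01. Ptk2 was the member with the least spread over the libraries.

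Src (ENSMUSG00000027646, chromosome 2, 157418444 to 157471862, plus strand) encodes the tyrosine kinase that acts with focal adhesion kinase. At CT1 its wild-type libraries averaged 108.2 ± 9.20 CPM, with 99.7 the lowest and 106.7 the middle value, and its knockout libraries held 168, 192 and 136 CPM. Again the groups did not overlap, and the log2 difference was 0.61 (SE 0.206, adjusted p = 0.11). At CT19, CT22 and CT10 the differences were 0.20, -0.18 and 0.13, each under 1 SE of 0.205 in size, and the groups overlapped. The knockout libraries were at 196, 127.1 and 141 CPM at CT19 and between 97.81 and 173.4 CPM at CT22.

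Bcar1 (ENSMUSG00000031955, chromosome 8, 111710474 to 111743809, minus strand) encodes the docking protein p130Cas, which Src and focal adhesion kinase phosphorylate. Its wild-type libraries ranged from 150.0 to 264.5 CPM and its knockout libraries from 123.7 to 225.3 CPM, with overlap at every time. Its genotype differences were -0.21 at CT19, -0.27 at CT22, 0.28 at CT1 and -0.14 at CT10, with an SE of 0.195 or 0.196. None differed from 0 beyond the spread between libraries.

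Crk (ENSMUSG00000017776, chromosome 11, 75679259 to 75706908, plus strand) encodes the adaptor that binds phosphorylated p130Cas and recruits Dock1. At CT10 its wild-type libraries were at 73.9, 95.7 and 88.0 CPM and its knockout libraries at 133.1, 106.6 and 108 CPM. The groups did not overlap there, and the log2 difference was 0.43 (SE 0.176, adjusted p = 0.207). At CT19, CT22 and CT1 the differences were -0.20, 0.13 and -0.18, and the groups overlapped.

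Dock1 (ENSMUSG00000058325, chromosome 7, 134670654 to 135173639, plus strand) encodes the exchange factor that activates Rac1. The wild-type libraries of CT1 held 29.7, 28.8 and 35.8 CPM and the knockout ones 45.8, 68.8 and 39.7 CPM. The knockout libraries were all higher but spread widely, and the log2 difference was 0.71 (SE 0.338, adjusted p = 0.25). The knockout groups held one high library each at the other times as well: 64.2 CPM beside 32.1 and 31.1 at CT19, 58.3 beside 34.0 and 19.99 at CT22, and 63.8 beside 37.1 and 35.5 at CT10. None of these 3 high libraries was a pool, and Rac1 was also highest of its group in each of them. So was the RPE marker sum, at 47800 CPM at CT19, 54440 at CT22 and 49090 at CT10. Whether cell mixture accounts for these values was not tested.

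Elmo1 (ENSMUSG00000041112, chromosome 13, 20090596 to 20608353, plus strand) encodes the partner that holds Dock1 at the membrane. It was the least abundant member, between 5.69 and 17.7 CPM over the 24 libraries. At CT10 the wild-type libraries were at 9.06, 8.58 and 9.09 CPM and the knockout libraries at 10.2, 9.89 and 10.1 CPM, which did not overlap although the log2 difference was 0.18 with an SE of 0.337 (adjusted p = 0.828). At CT1 the wild-type libraries ran from 6.69 to 17.7 CPM and the difference was -0.42 (SE 0.337, adjusted p = 0.532). Its paralogs were more abundant per length: Elmo2 was at 18.9 ± 3.79 and Elmo3 at 12.8 ± 2.32 CPM per kb (SD over 24 libraries).

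Rac1 (ENSMUSG00000001847, chromosome 5, 143503634 to 143528036, minus strand) encodes the GTPase at the end of this relay, which switches on branched actin growth. Wild-type libraries lay between 166.5 and 301 CPM and knockout libraries between 164 and 324 CPM, with overlap at every time. At CT1 the wild-type libraries were nearly alike at 210.0, 207 and 213 CPM, and the knockout libraries were at 211, 237 and 164 CPM. Genotype differences ran from -0.28 (SE 0.231) at CT19 to 0.35 (SE 0.231) at CT10. Rac1 exons overlap those of Daglb on the opposite strand over 2309 bases, 51.4% of the Rac1 exon bases, and the strand setting of the counting is not given in the sources used here, so its count is uncertain. Daglb itself was counted at 34.7 CPM on average.

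Cdc42 (ENSMUSG00000006699, chromosome 4, 137319696 to 137357720, minus strand) encodes the GTPase that starts actin-rich protrusions. At CT10 its wild-type libraries were at 129.9, 186 and 138 CPM and its knockout libraries at 282, 200.1 and 220 CPM. The knockout libraries were all above the wild-type ones, with a log2 difference of 0.63 (SE 0.203, adjusted p = 0.134). At CT19 the order of the group means was the reverse, with wild type at 198, 247 and 249.6 CPM and knockout at 238, 147 and 188 CPM, and a difference of -0.28 (SE 0.203). Its genotype difference ranged over the times by 0.91 on the log2 scale, below the median range of 1.08 over all tested genes. The edgeR test that this difference changes with time gave an adjusted p of 0.136.

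Anxa2 (ENSMUSG00000032231, chromosome 9, 69453620 to 69491795, plus strand) lay between 37.2 and 71.0 CPM over the wild-type libraries and between 28.8 and 67.7 CPM over those of the knockout. Its largest genotype difference was at CT19, where wild-type libraries held 45.0, 60.5 and 67.9 CPM and knockout libraries 38.4, 32.2 and 51.8 CPM. The groups overlapped, and the log2 difference was -0.50 (SE 0.251, adjusted p = 1). At CT10 the difference was 0.29 (SE 0.25), of the opposite sign. Exons of Elmo1 and Anxa2 also overlap an antisense gene, over 3.2% and 2.63% of their exon bases, and those antisense genes were counted at under 0.02 CPM on average.

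Myo7a (ENSMUSG00000030761, chromosome 7, 98051060 to 98119524, minus strand) was the member whose genotype difference changed over the times. The test that the difference between genotypes changes with time was passed by 1 of 10 members, Myo7a, and by 4.62% of all genes, so a count of 1 does not set the members apart. The log2 difference ran from -0.81 at CT22 to 0.68 at CT1, a range of 1.48 (edgeR adjusted p = 0.0352). That range was at percentile 63.4 of all tested genes, whose median was 1.08. Bases before its 2 annotated RefSeq start sites are shown, on the minus strand of GRCm38.p6, as the sequence next to the gene with the changed pattern. Capitals mark CG dinucleotides, and no annotated exon overlaps either stretch.
Myo7a, upstream start, chr7:98119525-98119743: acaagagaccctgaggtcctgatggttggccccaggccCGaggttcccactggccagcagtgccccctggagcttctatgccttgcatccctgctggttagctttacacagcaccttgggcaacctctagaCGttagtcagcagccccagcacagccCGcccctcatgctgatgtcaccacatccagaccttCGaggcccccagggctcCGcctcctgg
Myo7a, downstream start, chr7:98109249-98109498: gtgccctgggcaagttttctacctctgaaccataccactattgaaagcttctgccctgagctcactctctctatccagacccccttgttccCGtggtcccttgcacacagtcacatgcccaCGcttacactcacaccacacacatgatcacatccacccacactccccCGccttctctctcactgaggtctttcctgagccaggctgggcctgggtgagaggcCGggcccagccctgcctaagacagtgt
The stretches are 219 and 250 bases long, with 5 and 4 CG dinucleotides and a GC content of 62.6% and 57.6%. RefSeq windows from 250 bases before to 50 after a start were available for 8 members, 11 windows in all. The E-box CACGTG, the element through which the clock activators act and PER proteins repress, was in 0 of the 11 windows and in 7.15% of 32851 windows of the same length, both strands counted. The cyclic AMP response element TGACGTCA was in 1 of the 11, that of Cdc42, and in 1.79% of all windows. A match describes letters only.

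At CT22 Myo7a stood at 455, 333 and 348 CPM in wild type and at 294.5, 133.7 and 222 CPM in knockout. Every knockout library was below every wild-type one, and the mean was 0.57 times as high on the fitted scale (log2 difference -0.81, SE 0.234, adjusted p = 0.151). At CT1 the order was the opposite, with wild type at 228, 191 and 283 CPM and knockout at 306, 375 and 439 (log2 difference 0.68, SE 0.233, adjusted p = 0.12). At CT10 the wild-type libraries were again the higher ones, at 349, 286 and 363 CPM against 219, 253 and 199 CPM (log2 difference -0.57, SE 0.233, adjusted p = 0.207). At CT19 the groups overlapped, with wild type at 269, 330 and 229 CPM and knockout at 216, 227 and 271. None of the single-time differences passed over all genes with edgeR, while DESeq2 called those at CT22 and CT1. Averaged over the times, the difference was -0.23 (SE 0.116, adjusted p = 0.72).

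Within the knockout, Myo7a was 0.72 higher on the log2 scale at CT1 than at the other times (SE 0.182, adjusted p = 0.0543), which missed the threshold, and DESeq2 gave 0.78 (adjusted p = 0.00636). Within wild type the same difference was -0.48 (SE 0.195, adjusted p = 0.215). The edgeR value in knockout passed with RLE scaling (adjusted p = 0.045), with either other filter and without the 5 pooled libraries (adjusted p = 0.0276). It did not pass with the library number as a replicate block (0.54, adjusted p = 0.627). Nor did it pass with a library covariate in the fit: the level of rod markers (0.52, adjusted p = 0.344), the level of choroid markers (adjusted p = 0.502), or the slope of expression on GC content (adjusted p = 0.218) or on transcript length (adjusted p = 0.473).

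The rod markers tended to be high where Myo7a was low (Pearson r = -0.70 with the rod score, 24 libraries). At CT1 their sum was 55350 to 78710 CPM in wild type, where Myo7a was low, and 23610 to 29050 CPM in knockout, where Myo7a was high. At CT22 the sum was 15760 to 35710 CPM over wild-type libraries and 27210 to 90210 over knockout ones, and the knockout library with the most rod RNA, number 2, had the lowest Myo7a value of the series. At CT10 the ranges were 24600 to 39760 and 29450 to 47950 CPM. With the rod score, the mean log2 level of the rod markers, as a covariate in the fit, the Myo7a range was 0.89 (adjusted p = 0.45). With that covariate the Myo7a log2 difference was 0.35 at CT1 and -0.50 at CT10, and neither passed. At CT22 it lay between -1.125 and -0.547 over all 10 alternative fits, this one included. At CT1 the rod scores of the genotypes did not overlap, at 11.01 to 11.49 in wild type and 9.84 to 10.08 in knockout. Rod level and genotype therefore cannot be told apart at CT1. The same holds for inner retina markers, which summed to 830.5 to 1045 CPM in wild type and 389.8 to 502.7 in knockout. It also holds for cone markers, at 265 to 427.9 and 88.16 to 221.2 CPM.

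**Figure D4:**
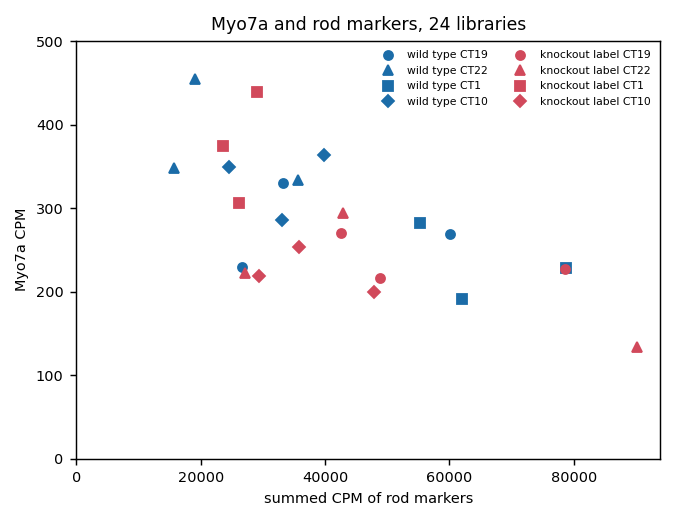
Myo7a CPM (vertical axis) against the summed CPM of the 13 rod markers (horizontal axis) in each of the 24 libraries, colour for genotype and shape for circadian time. The 3 knockout CT1 libraries have low rod sums and high Myo7a, and the 3 wild-type CT1 libraries the reverse.

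The CT1 differences of the other members in this group were smaller or of the opposite sign with the rod score in the fit. None of them had passed with edgeR, while DESeq2 had called those of Ptk2 and Src. Because the rod score separates the genotypes at CT1, these fits cannot tell rod level and genotype apart. That of Src was 0.11 in place of 0.61, that of Ptk2 0.26 in place of 0.43, that of Dock1 -0.16 in place of 0.71 and that of Bcar1 -0.14 in place of 0.28. The CT10 differences were as large with it: 0.69 for Cdc42 (adjusted p = 0.0604) and 0.43 for Crk (adjusted p = 0.156). The GC content of the longest transcript was 59.9% in Bcar1, 59.3% in Src, 56.3% in Myo7a, 48.6% in Dock1 and 47.0% in Ptk2. It was 51.7% in Anxa2, 48.3% in Rac1, 46.9% in Elmo1, 43.8% in Crk and 42.6% in Cdc42, next to a median of 49.4% over tested genes. With each library's slope of expression on GC content as a covariate, the Myo7a range was 1.31 (adjusted p = 0.119).

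The Myo7a interaction was near its threshold and was lost under several choices. It passed with RLE scaling (1.55, adjusted p = 0.0328) and with DESeq2 (1.55, adjusted p = 0.000703), and it was lost without the 5 pooled libraries (1.71, adjusted p = 0.053). Leaving out 1 library at a time kept the range between 1.30 and 1.79, and the call was lost for 11 of 24. Those were wild-type libraries 1 and 6 at CT22, 2 and 3and6 at CT1, and 1 and 4 at CT10, and knockout libraries 1, 4and6 and 5 at CT1 and 2 and 4 at CT10.

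Members also varied with each other from library to library. Over the 45 pairs, log2(CPM + 1) correlated most between Src and Dock1 (Pearson r = 0.86, Spearman rho = 0.85, 24 libraries) and between Rac1 and Cdc42 (r = 0.82, rho = 0.76). After the group means were taken out, these were 0.84 and 0.82, and without the 2 libraries farthest from the median they were 0.80 and 0.80. Dock1 and Rac1 had r = 0.63, and 0.86 within groups. For scale, Rac1 had r = 0.946 with Cnn3, its most similar gene. The most negative pair was Crk with Myo7a (r = -0.61, within groups -0.63), and Elmo1 was negative with its partner Dock1 (r = -0.41). All of these share library depth and the mixture of cells, and no p-value is attached to them.

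For 3 members of separate roles, the genes with the most similar pattern over the 24 libraries were picked by Pearson r among 11566 genes with a mean of at least 5 CPM. For Ptk2 they were Fras1 (0.826), Mfrp (0.807) and Gga2 (0.791), which Spearman's rho picked as well. For Rac1 they were Cnn3 (0.946), Tspan3 (0.933) and Laptm4a (0.933), and for Myo7a Ptpn23 (0.923), Bcl9l (0.919) and Nckap5l (0.918). By Spearman's rho, Cnn3 kept its place for Rac1 (0.943) with Gyg (0.924) and Hadh (0.912) next, while Ptpn23, Bcl9l and Nckap5l were not among the 3 genes nearest to Myo7a.

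The wider pathway was read from 104 other genes in 8 lists, and all 104 were tested. With edgeR, on the genotype average 0 of 104 passed (4 at an unadjusted p under 0.05 and 0 by DESeq2), and their median difference was 0.03 beside 0.02 for all genes. At CT19, CT22, CT1 and CT10, 0 of 104 passed each time, with 4, 14, 24 and 31 at an unadjusted p under 0.05 and 0, 1, 9 and 3 by DESeq2. The shares of all genes at those times were 3.47%, 12.7%, 19.5% and 17.9% unadjusted and 0.245%, 1.44%, 7.13% and 4.82% by DESeq2. For time in knockout and for CT1 in knockout, 0 of 104 passed (23 and 33 unadjusted, 6 and 17 by DESeq2), beside 11.7% and 21.9% of all genes unadjusted and 1.87% and 9.73% by DESeq2. In wild type 1 of 104 passed both for time and for CT1 against the other times, beside 0.947% and 0.7% of all genes. There 25 and 18 were at an unadjusted p under 0.05 (19.3% and 16% of all genes). DESeq2 called 4 and 4 (7.46% and 3.95% of all genes). For the interaction 5 of 104 passed (36 unadjusted, 22 by DESeq2), beside 4.62% of all genes (22.3% unadjusted, 15.8% by DESeq2). The counts that passed in edgeR do not set the pathway apart from all genes. Unadjusted counts were above the share of all genes mainly at CT10, for time and CT1 in knockout and for the interaction. DESeq2 counts were above it mainly for time and CT1 in knockout and the interaction, and below it at CT10 and for time in wild type. These differences were not tested.

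Among the 9 upstream receptors and ligands, the gene that passed in wild type was Mfge8, which encodes the ligand that bridges the integrin to phosphatidylserine on outer segment tips. It rose at CT1 by 0.70 on the log2 scale against the other times (SE 0.146, edgeR adjusted p = 0.0334), with group means of 136 ± 33.0 CPM (SD, n = 3) at CT1 and 99.4 ± 16.9, 76.6 ± 6.63 and 77.9 ± 5.22 CPM at CT19, CT22 and CT10. In knockout Mfge8 was at 84.1 ± 4.94 CPM at CT1 (genotype difference -0.69, SE 0.186, adjusted p = 0.0657). The wild-type CT1 group had the highest median rod sum, and with the rod score in the fit the Mfge8 value was 0.44 (adjusted p = 0.855). Leaving out 1 library at a time lost this call for 12 of 24, and that for any change over time in wild type (range 0.83, adjusted p = 0.0437) for 19 of 24. Mertk, the receptor that triggers ingestion, did not pass any comparison with edgeR. DESeq2 called it for the genotype at CT1, the interaction, and time and CT1 in wild type, and it stood at 46.3 ± 9.01 CPM per kb (SD over 24 libraries).

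The 5 genes with a genotype difference that changed over the times came from 3 lists. Among 18 adaptors and exchange factors it was Shc1, an adaptor of tyrosine kinase signalling (range 1.44, adjusted p = 0.0314). At CT10 wild type held 44.5 ± 8.38 CPM of Shc1 and knockout 24.5 ± 4.23, and at CT1 they held 26.3 ± 1.81 and 39.5 ± 4.58 CPM. Among 25 actin assembly effectors they were Wasf3, a WAVE protein that acts below Rac1 (range 1.99, adjusted p = 0.0368), and Arpc3, a subunit of the Arp2/3 complex (0.75, adjusted p = 0.0435). At CT1 wild type held 321 ± 34.4 CPM of Wasf3 and knockout 139 ± 13.9, and at CT22 they held 161 ± 72.1 and 276 ± 119.3 CPM. Among 9 phosphoinositide genes they were Pik3ca, the catalytic subunit of a phosphoinositide kinase (0.90, adjusted p = 0.0477), and Plcg1, a phospholipase (1.26, adjusted p = 0.0494).

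Shc1 and Plcg1 were higher in knockout at CT1 (log2 difference 0.58 and 0.70) and lower at CT22 and CT10, the signs of Myo7a, while Wasf3, Arpc3 and Pik3ca had the opposite signs at these times. With the rod score in the fit, 0 of these 5 passed, and the ranges were 1.12 for Shc1, 0.45 for Wasf3, 0.75 for Arpc3, 0.37 for Pik3ca and 0.67 for Plcg1. Leaving out 1 library at a time lost the call in 10 of 24 fits for Shc1, 16 for Wasf3, 21 for Arpc3, 22 for Pik3ca and 13 for Plcg1. In the focal adhesion and Src family list (12 genes), the myosins and melanosome motor partners (11) and the annexins (9), 0 genes passed the interaction in edgeR, with 4, 4 and 3 at an unadjusted p under 0.05, beside 22.3% of all genes. Myrip and Rab27a, the linker and the GTPase that tie Myo7a to melanosomes, were abundant at 67.6 ± 14.5 and 103.6 ± 19.5 CPM per kb.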

How the data were processed

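The deposited values are raw read counts per gene, whole numbers with no normalization, made by the authors for 24 libraries of laser-captured RPE. The submitters' processing notes name Trimmomatic 0.32, HISAT2 2.1.0, Cufflinks and HTSeq 0.11, and the annotation release and strand setting of the counting are not given in the sources used here. Of 54232 Ensembl identifiers, 54165 were matched to a symbol through GENCODE on GRCm38. The filterByExpr function, with a minimum count of 10 and the 8 groups as its grouping, chose the genes tested. edgeR 4.0.16 in R 4.3.3 fitted the 8 group means to all libraries with TMM scaling and robust quasi-likelihood dispersions (16 residual degrees of freedom), and p-values were adjusted by Benjamini-Hochberg over all 20275 genes. CPM values use the TMM factors. Tests over several times give a log2 range: the distance between the top and the bottom fitted value, or difference, among the times. The script was tested on simulated counts.

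The text names the 10 members, the other pathway genes that passed a test, and the 3 genes most similar to Ptk2, Rac1 and Myo7a. A few more, such as Mertk, Elmo2, Elmo3, Myrip and Rab27a, were named after their values were seen. The members and lists were chosen with earlier results of these data known. Alternatives were RLE scaling, other filters, DESeq2 1.42.0, a replicate block, rod and choroid marker scores, GC and length slopes, and leaving out pools or each library. Results on some items are not reported here.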

Additional observations from a re-analysis of the deposited data

Results flagged for a closer look

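For 6 genes the difference between genotypes changed over the circadian times by edgeR's test of the interaction (adjusted over 20275 genes, 4.62% of which passed). Among the members it was Myo7a, with a log2 range of 1.48 (adjusted p = 0.0352). Among the other pathway genes the range was 1.44 for Shc1 (adjusted p = 0.0314), 1.99 for Wasf3 (adjusted p = 0.0368), 0.75 for Arpc3 (adjusted p = 0.0435), 0.90 for Pik3ca (adjusted p = 0.0477) and 1.26 for Plcg1 (adjusted p = 0.0494). The median range over all tested genes was 1.08, and Arpc3 and Pik3ca were below it. All 6 adjusted p-values lay close to the threshold. All 6 genes were called by DESeq2 as well, which called 15.8% of all genes for the interaction. With the rod score in the fit none of the 6 passed, and leaving out 1 library at a time lost the call in 10 of 24 fits for Shc1 and in up to 22 of 24 for Pik3ca. Exons of Plcg1 overlap those of Zhx3 on the opposite strand over 4.82% of their bases.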

How the results depend on the processing

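The share of all genes tested that passed at an adjusted p under 0.05 moved as follows. The genotype average (0.375%) gave 1.16% without a filter on low counts, 0.834% with DESeq2, 0.178% with a replicate block and 0.602% with the rod score. CT19 (0.0691%) gave 0.358% without the filter, 0.245% with DESeq2, 0.00986% with a replicate block and 0.0143% without the 5 pooled libraries (the pools). CT22 (0.227%) gave 2.47% without the filter, 1.44% with DESeq2, 0.0197% with a replicate block, 0.0592% with the rod score, 0.0838% with the choroid score, 0.0573% without the pools and 0.113% with the GC slope. CT1 (0.533%) gave 4.76% without the filter, 1.75% for genes of at least 5 CPM, 7.13% with DESeq2, 0.0148% with a replicate block, 0.0641% with the rod score, 1.09% with the choroid score, 0.0382% without the pools and 0.163% with the length slope. CT10 (0.0345%) gave 0.104% with RLE scaling, 3.06% without the filter, 0.268% for genes of at least 5 CPM, 4.82% with DESeq2, 0.454% with the rod score, 0.276% with the choroid score, 0.353% without the pools and 0.0148% with the GC slope. Time in wild type (0.947%) gave 6.61% without the filter, 7.46% with DESeq2, 0.074% with a replicate block, 4.45% with the choroid score, 0.119% without the pools and 3.94% with the length slope. Time in knockout (0%) gave 3.83% without the filter, 1.87% with DESeq2 and 0.00955% without the pools. The interaction (4.62%) gave 8.22% without the filter, 15.8% with DESeq2, 0.0148% with a replicate block, 0.133% with the rod score, 1.8% with the choroid score, 1.42% without the pools, 0.0838% with the GC slope and 0.0543% with the length slope. CT1 against the other times in wild type (0.7%) gave 3.93% without the filter, 3.95% with DESeq2, 3.75% with the choroid score, 0.0191% without the pools, 3.11% with the length slope and 0% with a replicate block or the rod score. The same in knockout (0.286%) gave 0.829% with RLE scaling, 5.4% without the filter, 6.39% for genes of at least 5 CPM, 9.73% with DESeq2, 0.00493% with the choroid score, 3.63% without the pools and 0% with a replicate block, the rod score, the GC slope or the length slope.

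Members called went from 0 to 1 at CT22 (Myo7a, without the filter and by DESeq2), to 1 (Dock1, without the filter) and 3 (DESeq2) at CT1, and to 1 (Myo7a) for time in knockout, without the filter and by DESeq2. For CT1 in knockout the count was 1 (Myo7a) with RLE scaling, without the filter, for at least 5 CPM, by DESeq2 and without the pools. The interaction call of Myo7a went to 0 members with the replicate block (1.54, adjusted p = 0.326), the rod score, the choroid score (1.21, adjusted p = 0.0958), without the pools, with the GC slope and with the length slope (1.26, adjusted p = 0.137). Leaving out each library in turn gave, as a share of all genes tested, 0.303 to 0.406% for the genotype average, 0.0141 to 0.0796% for CT19, 0.0562 to 1.48% for CT22, 0.0936 to 3.69% for CT1, 0.00466 to 0.155% for CT10, 0.0751 to 3.21% for time in wild type, 0 to 0.014% for time in knockout, 0.0936 to 7.9% for the interaction, 0 to 2.77% for CT1 against the other times in wild type and 0 to 6.56% for the same in knockout. Members called ranged from 0 to 1 at CT22 (1 without knockout 1and4), for the interaction and for CT1 in knockout (1 without wild-type CT22 3 and without knockout CT19 4, CT22 1and4 or CT22 3). The cause of these changes was not tested. Of the 10 members with opposite extremes, 8 to 10 remained so when 1 library was left out.

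Library numbers gave no sign of pairing libraries across groups. Deviations from the group means had a median correlation of 0.011 over 30 pairs with the same number (-0.213 to 0.422). Over 222 pairs with different numbers it was -0.015 (-0.461 to 0.406). This does not exclude a pairing, because the labels do not explain the numbers. The fit with the replicate block left 7 residual degrees of freedom. RLE scaling moved the median of all genes by at most -0.093 (CT10).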
